A study of Mus musculus with 4 samples.

Results

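The Bcl2 family sets the threshold at which a cell commits to death through its mitochondria, and 8 of its genes were followed here across 4 arrays of mouse heart RNA. The members were listed by name: the anti-apoptotic genes Bcl2, Bcl2l1 and Mcl1, the effectors Bax and Bak1, and the BH3-only genes Bad, Bid, Bbc3, Bnip3 and Bnip3l. Every probe set annotated to exactly 1 gene symbol on the list was taken, which gave 24 probe sets of 8 genes, out of 34945 such probe sets of 18193 genes on the array. Bax had no probe set annotated to it here, and the 3 probe sets of Bnip3l also carry the name of its pseudogene Bnip3l-ps, so Bax and Bnip3l are not analysed. Bak1 is therefore the only effector with values. The anti-apoptotic genes had 15 probe sets, the effector 2 and the BH3-only genes 7.

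Heart RNA was hybridised to 4 Affymetrix mouse expression arrays, 1 per sample. The labels do not say that each sample was a separate mouse, so p-values measure only the spread between these samples, which may be technical. The arrays NTg 1 and NTg 2 came from wild type mice, and those labelled Tg-Sirt1 1 and Tg-Sirt1 2 from mice with a transgene for Sirt1, an NAD-dependent deacetylase. Euthanasia was by pentobarbital (120 mg/kg), and no other treatment is named. The strain, age and sex, and the promoter and line of the transgene, are not stated in the labels. Values are log2 units after robust multi-array averaging (RMA), with 1 value per probe set and array.

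In this family, Bcl2, Bcl2l1 (the gene of Bcl-xL) and Mcl1 encode proteins that bind and restrain the effectors Bax and Bak1. Freed effectors form pores in the outer mitochondrial membrane, from which cytochrome c escapes and activates caspases. BH3-only proteins carry a short helix that occupies the restraining proteins or activates the effectors. Bnip3 and Bnip3l are divergent members that also serve as mitophagy receptors, tethering mitochondria to the autophagosome. Cardiomyocytes are rich in mitochondria and rarely divide, and Mcl1 and Bcl-xL are known to be needed for their survival.

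On the deposited scale, the brightest probe sets of 4 genes stood apart on the array NTg 2 by at least 0.25 log2 units from the other 3. They were lower for Bcl2 and Mcl1 and higher for Bcl2l1 and Bnip3. That of Mcl1 fell short of this after a second quantile normalization (0.08), and that of Bnip3 after centring on array medians (0.24). Of these 4 genes, Bcl2, Mcl1 and Bnip3 have a match to a motif searched here in their promoter and are shown for that reason. The 3 windows of Bcl2l1 hold none. The windows hold 300 bases each, 250 before and 50 from the annotated start, read 5′ to 3′ on the gene's strand, from RefSeq on GRCm38.p6. All 8 genes had at least 1 window, and there were 13 windows in all because several genes have more than 1 annotated start. Capitals mark matches on either strand to 3 motifs. These are ACGTG, a form of the core bound by hypoxia-inducible factors, TGTTTAC, a FoxO site, and TGACG, the core of the cAMP response element. The form GCGTG of the hypoxia core was not searched. The Bcl2 window is chr1:106714241-106714540 on the minus strand, that of Mcl1 chr3:95658471-95658770 on the plus strand and that of Bnip3 chr7:138909457-138909756 on the minus strand.
Bcl2: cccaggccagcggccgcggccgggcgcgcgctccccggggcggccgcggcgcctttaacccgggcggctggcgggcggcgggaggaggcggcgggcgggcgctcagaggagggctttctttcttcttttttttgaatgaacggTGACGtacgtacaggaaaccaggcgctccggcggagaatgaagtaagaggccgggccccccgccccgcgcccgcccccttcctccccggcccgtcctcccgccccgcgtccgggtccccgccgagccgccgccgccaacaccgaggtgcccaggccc
Mcl1: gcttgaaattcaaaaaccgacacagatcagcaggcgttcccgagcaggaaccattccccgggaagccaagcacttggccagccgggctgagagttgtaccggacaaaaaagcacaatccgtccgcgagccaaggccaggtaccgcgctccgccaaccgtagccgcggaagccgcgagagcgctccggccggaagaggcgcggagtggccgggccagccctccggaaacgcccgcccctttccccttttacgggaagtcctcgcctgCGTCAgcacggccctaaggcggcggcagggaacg
Bnip3: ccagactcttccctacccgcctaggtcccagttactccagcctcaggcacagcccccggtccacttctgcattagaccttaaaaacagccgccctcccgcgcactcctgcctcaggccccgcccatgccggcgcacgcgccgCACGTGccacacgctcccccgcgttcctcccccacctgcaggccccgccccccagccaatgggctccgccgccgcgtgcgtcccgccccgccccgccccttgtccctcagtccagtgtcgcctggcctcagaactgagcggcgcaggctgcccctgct

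The Bcl2 window holds 1 TGACG match, which begins 107 bases before the start, and the Mcl1 window holds 1 on the opposite strand, past the start. The Bnip3 window holds the overlapping pair of ACGTG matches that make up CACGTG, 108 bases before the start. The same CACGTG stands 64 bases before another start of Bbc3, and a TGACG match 55 bases before its first listed start, so neither motif is that of the shown genes alone. Of 32851 promoter windows of this length, 20.8% hold TGACG, 19.6% ACGTG and 3.65% TGTTTAC. The FoxO letters occur in 1 of the 13 windows, at an inner start of Bbc3. FoxO factors are known substrates of Sirt1, and Bbc3 is a known FoxO and p53 target. A stretch of 60 bases around that match, chr7:16310067-16310126 on the plus strand, reads as follows.
Bbc3: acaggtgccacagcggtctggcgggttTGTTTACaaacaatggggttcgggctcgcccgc

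None of the 3 motifs was found in the windows of Bcl2l1, Bak1, Bad and Bid. A match is a stretch of letters and was not tested as a binding site.

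NTg 1 and the array labelled Tg-Sirt1 1 gave almost the same values although their labels differ. Over 45037 probe sets the SD of their differences was 0.0759 log2 units, against 0.342 to 0.405 in the other 5 pairs of arrays, and their largest difference was 0.48. Over the 24 family probe sets they differed by at most 0.16. The latter is therefore named by its label throughout. Its mean with NTg 1, called the pair mean, serves as the reference for describing NTg 2 and Tg-Sirt1 2. The level of Sirt1 was 7.30 (NTg 1), 7.17 (NTg 2), 7.16 (array labelled Tg-Sirt1 1) and 7.93 (Tg-Sirt1 2), high on the last alone.

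Bcl2 varied more than any other member over the 4 arrays, and its 5 probe sets did not vary together. The brightest, 1457687_at, gave 8.91 (NTg 1), 7.26 (NTg 2), 8.85 (array labelled Tg-Sirt1 1) and 8.82 (Tg-Sirt1 2). NTg 2 stands alone, 1.62 log2 units below the pair mean. In RNA of a whole organ, a lower number of cells that express a gene and a lower amount per cell cannot be told apart. Probe set 1437122_at gave 7.52, 6.21, 7.40 and 7.0 in the same order. It too was lowest on NTg 2, by 1.25 below the pair mean, with Tg-Sirt1 2 in between at 0.46 below it.

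The other 3 Bcl2 probe sets lay within 0.11 of the pair mean on NTg 2. Probe set 1422938_at gave 7.32 (NTg 1), 7.20 (NTg 2), 7.28 (array labelled Tg-Sirt1 1) and 6.72 (Tg-Sirt1 2). It was thus low on Tg-Sirt1 2 and not on NTg 2. The dim probe set 1440770_at did the same, with 5.24, 5.25, 5.40 and 4.46. Probe set 1443837_x_at went the other way and was highest on Tg-Sirt1 2, with 6.31, 6.20, 6.30 and 6.59. The suffix x marks probes that may also bind other transcripts. Relative to the pair mean, the 5 probe sets lay between -1.62 and -0.07 on NTg 2 and between -0.86 and 0.29 on Tg-Sirt1 2. NTg 2 was lowest in 3 of the 5 and Tg-Sirt1 2 in 2, on the deposited scale, after a second quantile normalization and after centring on medians.

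Mcl1, which encodes a short-lived guardian protein, was bright on every array. The brightest probe set, 1437527_x_at, gave 11.44 (NTg 1), 11.14 (NTg 2), 11.44 (array labelled Tg-Sirt1 1) and 11.66 (Tg-Sirt1 2). NTg 2 was lowest and Tg-Sirt1 2 highest, with the pair in the middle. NTg 2 was the lowest array for all 6 Mcl1 probe sets, by 0.02 to 0.32 below the pair mean, and Tg-Sirt1 2 was the highest for 4. After a second quantile normalization NTg 2 was lowest for only 2 of the 6 and highest for 2 others, and 1437527_x_at was 0.08 below the pair mean. The 6 probe sets report on 1 gene and are not replicates. NTg 2 was the lowest array at 29.6% of all probe sets and Tg-Sirt1 2 the highest at 30.1%.

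Probe set 1448503_at of Mcl1 had no overlap between the labels. It gave 10.74 (NTg 1), 10.61 (NTg 2), 10.76 (array labelled Tg-Sirt1 1) and 10.89 (Tg-Sirt1 2). The distance between the nearest arrays of the labels was that between the near-identical arrays. The 3 remaining probe sets of intermediate brightness, 1456243_x_at, 1416880_at and 1416881_at, were 0.20, 0.23 and 0.32 below the pair mean on NTg 2, and 0.11 above, 0.10 below and 0.07 below it on Tg-Sirt1 2. The last one, 1456381_x_at, ranged over 0.15 in all.

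Bcl2l1, whose long splice form protects and whose short form promotes death, was high rather than low on NTg 2 in its brightest probe set. Probe set 1420888_at gave 8.68 (NTg 1), 9.16 (NTg 2), 8.69 (array labelled Tg-Sirt1 1) and 8.74 (Tg-Sirt1 2). NTg 2 was 0.48 above the pair mean, and the other 3 arrays lay within 0.06 of each other. A second quantile normalization raised this difference to 0.70. Probe set 1420887_a_at, which the suffix a marks as shared by splice forms, gave 6.73, 6.91, 6.76 and 6.34. It was low on Tg-Sirt1 2, by 0.41 below the pair mean.

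The dimmer probe sets 1426191_a_at and 1426050_at were likewise lowest on Tg-Sirt1 2, by 0.32 and 0.30 below the pair mean. They gave 5.10 and 4.09 there, against 5.34 to 5.43 and 4.38 to 4.44 elsewhere. Both were under the median of each array. Tg-Sirt1 2 was thus lowest in 3 of 4 Bcl2l1 probe sets, under each of the 3 scalings, and it was the lowest array at 29.2% of all probe sets.

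**Figure D1:**
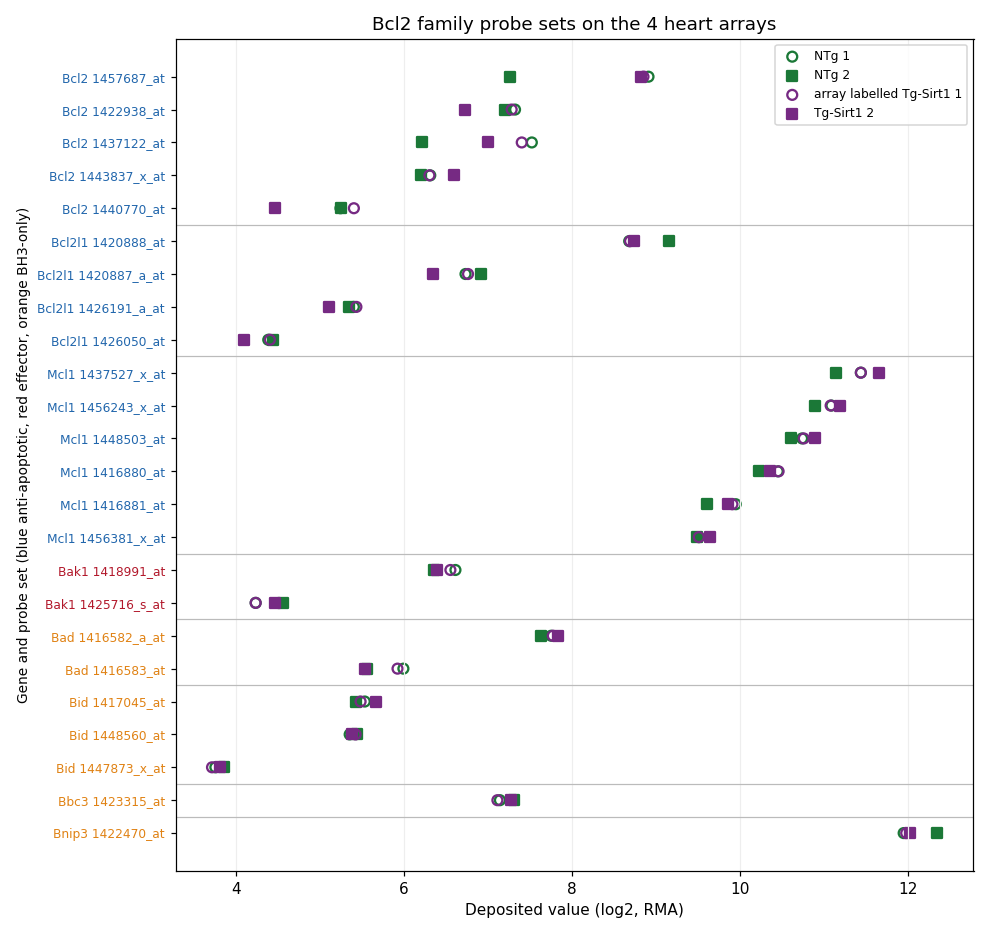
Deposited log2 value (x axis) of each of the 24 probe sets of 8 Bcl2 family genes (rows, coloured by role), with 1 mark per array: green NTg, purple Tg-Sirt1, open circles for the near-identical arrays NTg 1 and Tg-Sirt1 1, filled squares for NTg 2 and Tg-Sirt1 2. The open circles lie at most 0.16 apart in every row, and the squares of Bcl2 1457687_at (7.26 on NTg 2) and 1440770_at (4.46 on Tg-Sirt1 2) lie far from them on different arrays.

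Among the effectors, Bak1 sits in the outer mitochondrial membrane and forms the pore once released. Its brighter probe set, 1418991_at, gave 6.61 (NTg 1), 6.35 (NTg 2), 6.55 (array labelled Tg-Sirt1 1) and 6.39 (Tg-Sirt1 2). NTg 2 and Tg-Sirt1 2 were both below the pair, by 0.23 and 0.19. The dim probe set 1425716_s_at gave 4.23, 4.56, 4.23 and 4.46, both above the pair. The 2 Bak1 probe sets thus moved in opposite directions on the same arrays, and the labels overlapped in both.

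Of the BH3-only genes, Bad is the sensitizer held inactive by survival kinases through 14-3-3 proteins. Probe set 1416582_a_at gave 7.75 (NTg 1), 7.63 (NTg 2), 7.77 (array labelled Tg-Sirt1 1) and 7.83 (Tg-Sirt1 2). The labels did not overlap, but again only by the 0.02 that separates the near-identical arrays. The dimmer 1416583_at gave 5.99, 5.56, 5.92 and 5.53, low on both NTg 2 and Tg-Sirt1 2. Bid, which links death receptors to mitochondria once caspase-8 has cut it, was under the array median in all 3 probe sets. Its probe sets ranged over 0.09 to 0.23, the narrowest of the members with several.

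Bbc3, the gene of the potent killer Puma, gave 7.14 (NTg 1), 7.31 (NTg 2), 7.11 (array labelled Tg-Sirt1 1) and 7.27 (Tg-Sirt1 2). The 4 arrays lay within 0.20. Bnip3, the hypoxia-induced mitophagy receptor, was bright and gave 11.95, 12.35, 11.98 and 12.03 in the same order. NTg 2 was 0.39 above the pair mean, and the other 3 arrays lay within 0.08 of each other. The difference was 0.57 after a second quantile normalization, so NTg 2 was highest for Bnip3 under each scaling.

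The roles were then compared by how often 1 array stood apart from the other 3 by at least 0.25 log2 units, a distance chosen after seeing the data. NTg 2 was lower in this way at 4 of 24 family probe sets, all of them anti-apoptotic (1457687_at and 1437122_at of Bcl2, 1437527_x_at and 1416881_at of Mcl1), against 11.7% of all probe sets. It was higher at 2, Bcl2l1 1420888_at and Bnip3 1422470_at, against 10.4%. Tg-Sirt1 2 was lower at 4, also anti-apoptotic (1422938_at and 1440770_at of Bcl2, 1420887_a_at and 1426050_at of Bcl2l1), against 7.84%. It was higher at 1, Bcl2 1443837_x_at, against 8.22%. The probe set nearest below this distance was Bcl2l1 1426191_a_at, with 0.24 below the others on Tg-Sirt1 2. These counts depend on the scaling: after a second quantile normalization both Mcl1 probe sets fell short of it on NTg 2 (0.08 and 0.04 below the others), while Mcl1 1437527_x_at passed it on Tg-Sirt1 2 (0.28 above). After centring Bnip3 fell short of it (0.24), and Mcl1 1456243_x_at reached it on NTg 2 (0.25 below). Both Bcl2 probe sets and Bcl2l1 1420888_at stood apart on NTg 2 under each of the 3 scalings.

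Of the 11 probe sets that stood apart, 10 belong to anti-apoptotic genes, which hold 15 of the 24, and 1 to the 7 of BH3-only genes. Neither Bak1 probe set did so. Over all probe sets, NTg 2 stood apart below at 11.7% and above at 10.4%, and Tg-Sirt1 2 below at 7.84% and above at 8.22%. Whether the roles differ in standing apart was not tested, since probe sets of a gene share their transcript. The roles also differ in brightness. Above the median on none of the arrays were 3 of the 15 anti-apoptotic, 1 of the 2 effector and 4 of the 7 BH3-only probe sets. The range over the 4 arrays had a median of 0.39 over anti-apoptotic, 0.30 over effector and 0.20 over BH3-only probe sets, against 0.33 over all probe sets. Within the anti-apoptotic genes the median range was 0.94 over Bcl2, 0.42 over Bcl2l1 and 0.29 over Mcl1.

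**Figure D2:**
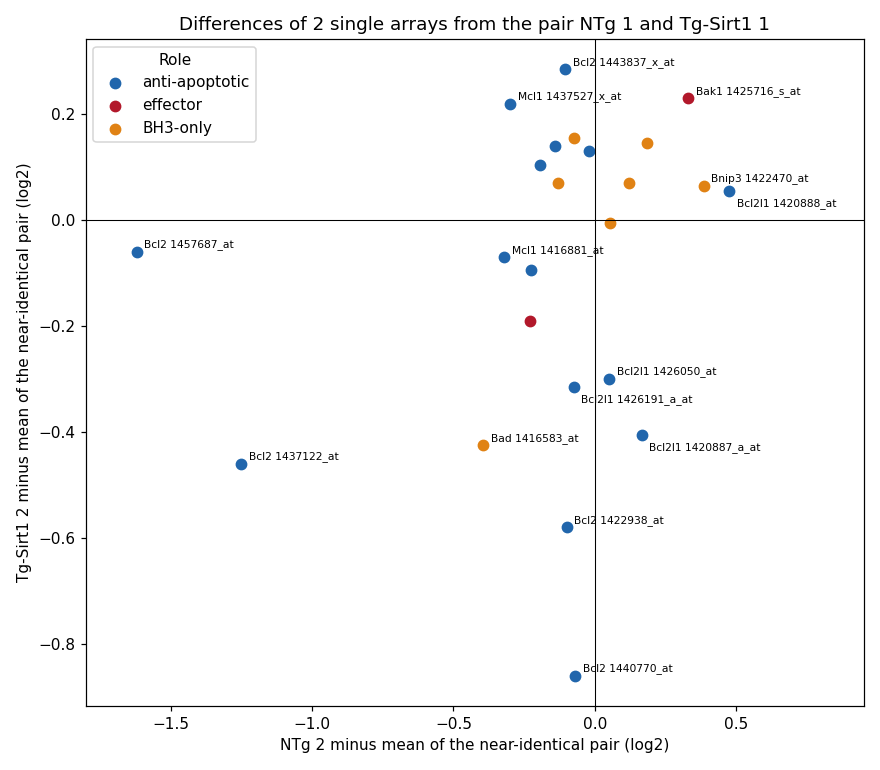
Each point is 1 of the 24 family probe sets, coloured by role, with NTg 2 minus the pair mean on the x axis and Tg-Sirt1 2 minus the pair mean on the y axis, in log2 units. Bcl2 probe sets spread along both axes (to -1.62 and to -0.86), while most BH3-only points lie near the origin.

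Between the labels, no family probe set passed the test. In limma, fitted over all 45037 probe sets, 0 of 24 had an adjusted p under 0.05 and 0 had an unadjusted p under 0.05, against 0% and 0.0622% of all probe sets. Their unadjusted p ran from 0.187 to 0.970 and all had an adjusted p of 0.996. Both Tg-Sirt1 arrays were above both NTg arrays at the 2 probe sets of Mcl1 and Bad named above, against 9.59% of all probe sets, and below them at 0, against 11.4%. Because an array of each label nearly equals one of the other, the test could hardly make a call, and its silence is no sign of equal levels. With 2 arrays a label, the smallest two-sided p of an exact permutation test is 0.333.

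The largest difference was that of Bcl2 1457687_at, with a mean of 8.84 ± 0.02 (SD, n = 2) over the Tg-Sirt1 arrays against 8.09 ± 1.17 (SD, n = 2) for NTg. This log2 fold change of 0.75 had a standard error of 0.53, and its 95% confidence interval ran from -0.61 to 2.11 (limma adjusted p = 0.996). Without NTg 2 it was -0.08, and without NTg 1 it was 1.58. Counting the averaged pair as a single NTg array gave 0.75, and as a single Tg-Sirt1 array 1.59 (limma adjusted p = 0.998 and 0.508), fits in which 1 label is left with 1 array. The other Bcl2 probe sets had log2 fold changes of -0.26 (1422938_at), 0.34 (1437122_at), 0.19 (1443837_x_at) and -0.32 (1440770_at). Of these, 1437122_at was -0.32 without NTg 2, and 1422938_at and 1440770_at were 0.02 and 0.16 without Tg-Sirt1 2.

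For Mcl1, all 6 log2 fold changes were above 0 on the deposited scale, from 0.07 to 0.26, but after a second quantile normalization those of 1416880_at and 1456381_x_at were -0.04 and -0.03. Mcl1 1437527_x_at had the smallest p of the family, with 11.55 ± 0.16 (SD, n = 2) in Tg-Sirt1 against 11.29 ± 0.21 (SD, n = 2) in NTg and a standard error of 0.17 (unadjusted p = 0.187, limma adjusted p = 0.996). Without NTg 2 its log2 fold change was 0.11 and without Tg-Sirt1 2 it was 0.15. For Bcl2l1, all 4 were below 0, from -0.27 to -0.11. The brightest, 1420888_at, had -0.21, which was 0.04 without NTg 2.

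Bak1 had log2 fold changes of -0.01 and -0.05, Bad 0.11 and -0.05, and the 3 Bid probe sets -0.05 to 0.09. Bbc3 had -0.04, and Bnip3 had -0.15, which was 0.06 without NTg 2. Those of Bak1 1418991_at turned positive after a second quantile normalization (0.03) and after centring (0.03). For all 9 effector and BH3-only probe sets the 95% confidence interval spanned 0, and its bounds lay between -0.61 and 0.51. Over genes, each by its brightest probe set, the median log2 fold change was 0.26 for the 3 anti-apoptotic genes and 0.03 for the 4 BH3-only genes. It was -0.01 for Bak1 and 0.02 over 18193 genes. The 0.26 is the value of Mcl1 itself, between 0.75 for Bcl2 and -0.21 for Bcl2l1, so the 3 genes did not move together. The anti-apoptotic median was 0.08 when every probe set was used, 0.04 without NTg 2 and 0.15 without Tg-Sirt1 2. That of the BH3-only genes was -0.04 over every probe set and -0.06 without Tg-Sirt1 2.

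**Figure D3:**
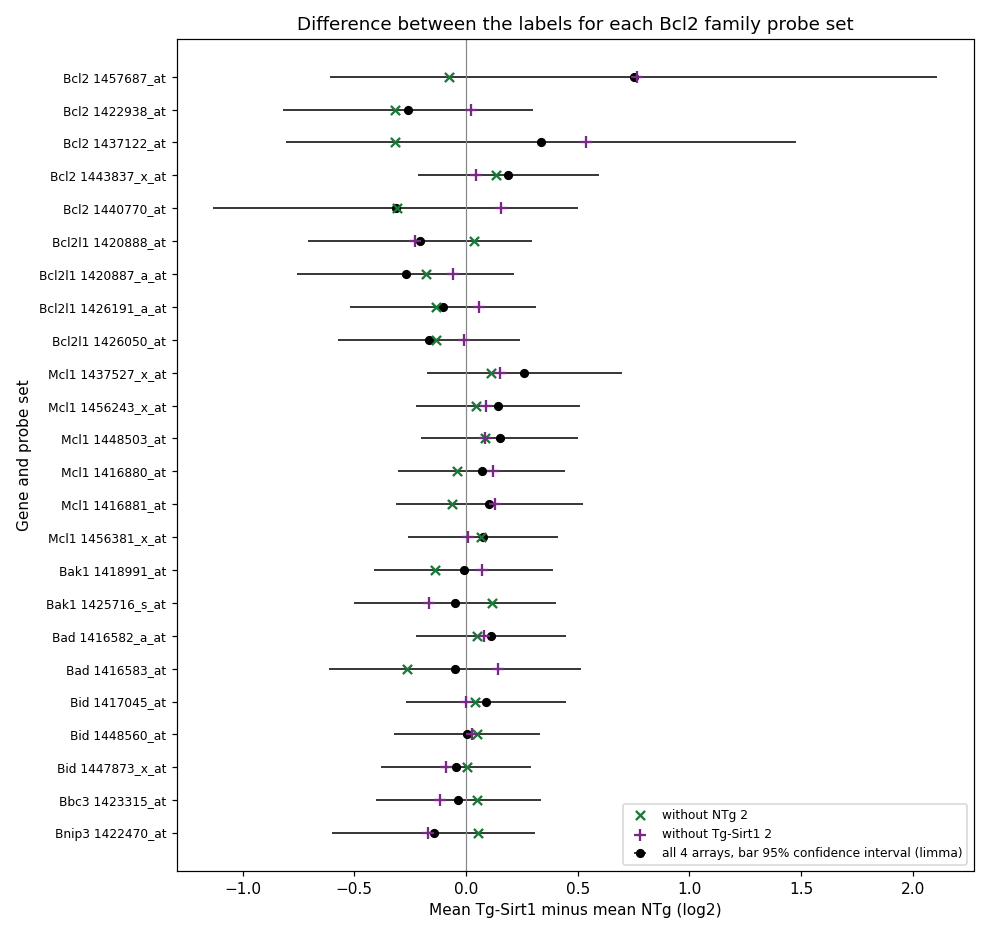
Log2 difference between the Tg-Sirt1 and the NTg mean (x axis) for each of the 24 family probe sets (rows): black points with bars for the limma estimate and its 95% confidence interval over 4 arrays, crosses without NTg 2 and plus signs without Tg-Sirt1 2. Every interval spans 0, and the estimate of Bcl2 1457687_at falls from 0.75 to -0.08 without NTg 2.

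Bcl2 1457687_at had the widest range of the brightest family probe sets, so genes of like profile were looked for. Likeness was the Euclidean distance between the 4 log2 values after each gene's mean was subtracted, over 1116 genes with at least 0.5 times its range, and the nearest 5 were Ctnnal1 (0.0245), Pdlim4 (0.0748), Tubb2a (0.114), Stk39 (0.118) and Gask1b (0.129). Ctnnal1, a catenin-like gene, gave 9.38, 7.70, 9.31 and 9.29 in the same order of arrays. Pdlim4, a PDZ and LIM domain gene, gave 9.35, 7.68, 9.31 and 9.34. The tubulin gene Tubb2a was 1.49 below the pair mean on NTg 2, the kinase gene Stk39 1.58 and Gask1b 1.62. All 5 were thus low on NTg 2 alone. Over 4 arrays, of which 2 are near-identical, likeness of this kind says no more than that.

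The wider pathway was read from 6 lists with 86 genes, of which 78 had a probe set with 1 symbol. In limma 0 of 78 passed in either direction, and 0 had an unadjusted p under 0.05. The Tg-Sirt1 mean was higher for 50 of them and lower for 28, with a median log2 fold change of 0.10, whereas it was higher for 53.1% of all genes, with a median of 0.02. Without NTg 2 it was higher for 37, with a median of 0. Single values below rest on the same 4 arrays and had an adjusted p of 0.996 in limma. Of the 18 genes named from the lists, 14 had a log2 fold change over 1.5 times smaller without NTg 2, and 11 without Tg-Sirt1 2. Leaving out NTg 1 or the array labelled Tg-Sirt1 1 made 10 and 8 over 1.5 times larger. The 18 were picked by smallest p over all 4 arrays, and the near-identical arrays nearly cancel between the labels. By this design their fold changes rest on NTg 2 and Tg-Sirt1 2, and the counts show no more than that.

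Of 15 other genes of the Bcl2 family and its partners, 9 had a higher Tg-Sirt1 mean (median 0.04), and 7 after a second quantile normalization (median -0.04). The median was 0.02 without NTg 2. Bik, a BH3-only gene, gave 7.04 (NTg 1), 7.13 (NTg 2), 7.04 (array labelled Tg-Sirt1 1) and 6.43 (Tg-Sirt1 2), low on the last alone. The co-chaperone gene Bag4 was low on NTg 2 alone, at 6.34 against 6.84 to 7.0. Becn1, the autophagy gene whose protein binds Bcl2, gave 8.68 on NTg 2 against 9.04 to 9.13. Their log2 fold changes were -0.35, 0.31 and 0.23.

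Mitochondrial pore and release factors had 8 of 13 higher (median 0.15, but 0.04 after a second quantile normalization and -0.02 without NTg 2). The fission gene Dnm1l gave 10.73 (NTg 1), 10.54 (NTg 2), 10.75 (array labelled Tg-Sirt1 1) and 11.05 (Tg-Sirt1 2) (log2 fold change 0.27). Aifm1, which carries a caspase-independent death signal, had 0.19 and the anion channel gene Vdac3 0.17. Caspases and their inhibitors had 9 of 12 higher (median 0.21, and 0.16 after a second quantile normalization, but 0.02 without NTg 2). Apaf1, the scaffold of the apoptosome, gave 6.14 (NTg 1), 5.53 (NTg 2), 6.06 (array labelled Tg-Sirt1 1) and 6.37 (Tg-Sirt1 2). Its log2 fold change was 0.38, with overlapping labels, and 0.08 without NTg 2. Casp2 and Casp8, both initiator caspases, had 0.25 each, with NTg 2 lowest and Tg-Sirt1 2 highest.

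The list of p53 and upstream control genes had 9 of 15 higher (median 0.06, but -0.01 after a second quantile normalization and -0.03 without NTg 2). Cdkn1a, the p53 target p21, was high on NTg 2 alone and had a log2 fold change of -0.84, which was -0.18 without NTg 2. The 14-3-3 gene Ywhaz had 0.20 and the calcineurin gene Ppp3ca, whose enzyme removes phosphate from Bad, 0.26, both highest on Tg-Sirt1 2. The mitophagy partners had 6 of 11 higher (median 0.01), and 3 of 11 after a second quantile normalization (median -0.09). The median was -0.04 without NTg 2. Map1lc3a, an LC3 gene, had -0.23, Rheb 0.23 and Gabarapl1 0.20.

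Hypoxia-regulated genes, the group to which Bnip3 belongs by its control, did not follow Bnip3 on NTg 2. Of 12 such genes, 10 were below the pair mean on NTg 2, with a median of -0.38, whereas Bnip3 was 0.39 above it. The median was -0.18 with 9 of 12 below after a second quantile normalization. Over all genes the median on NTg 2 was -0.01. Low values on NTg 2 were not particular to this list. On the deposited scale 11 of 13 mitochondrial pore and release factors, 9 of 12 caspases and inhibitors and 53 of all 78 list genes were below the pair mean there. After a second quantile normalization it was 4 of 13 and 8 of 12 in the first 2 of these. Hif1a, the oxygen-regulated factor, gave 10.25, 9.69, 10.26 and 10.52. The glucose transporter gene Slc2a1 gave 7.98 on NTg 2 and the prolyl hydroxylase gene Egln3 9.43, the lowest array for each. Their log2 fold changes were 0.42, 0.35 and 0.35; leaving out NTg 2 gave 0.14, 0.18 and 0.06. Between the labels the list had 9 of 12 higher (median 0.18), and 5 of 12 without NTg 2 (median -0.01).

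**Figure D4:**
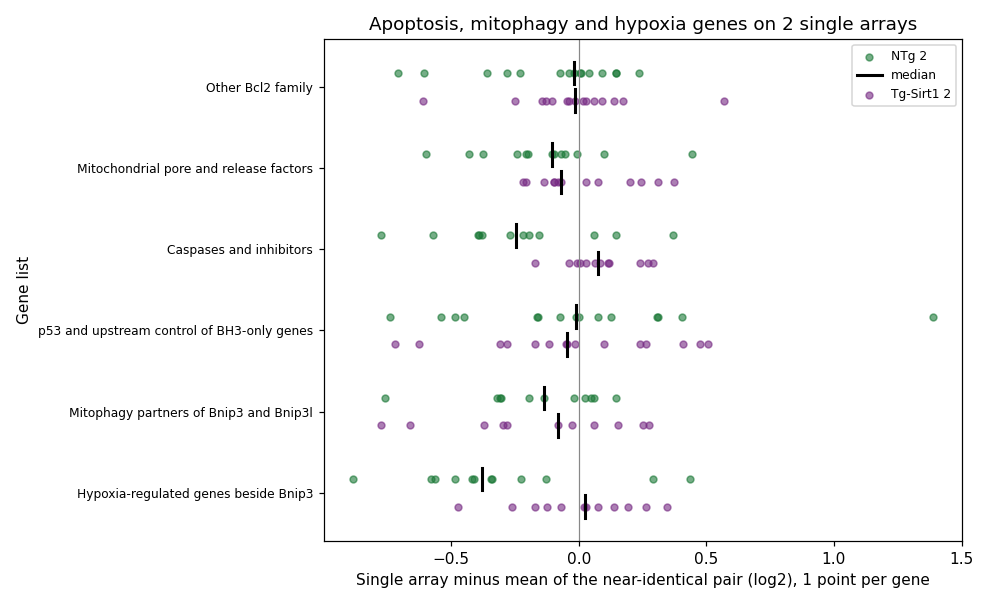
Each point is 1 gene of the 6 lists (rows), by its brightest probe set, as the difference of NTg 2 (green) or Tg-Sirt1 2 (purple) from the pair mean in log2 units, and black bars are list medians. The hypoxia list lies mostly to the left on NTg 2 (median -0.38), and 1 gene, Cdkn1a, lies far to the right.

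Some markers of several cell types of the heart moved with NTg 2 or with Tg-Sirt1 2, but in several lists the markers did not move together. The 6 cardiomyocyte markers were at 12.24 to 14.20 on every array. Tg-Sirt1 2 was lowest for 4 of them and highest for 1, Ryr2 (12.51 against 12.24 to 12.43), and NTg 2 was lowest for 2. The log2 of their summed signal was 16.22 on Tg-Sirt1 2 and 16.28 on NTg 2, against 16.36 on both arrays of the pair. All 6 fibroblast markers were lowest on NTg 2, which was the lowest array at 29.6% of all probe sets. The log2 of their summed signal was 13.5 on NTg 2, against 14.3 on both arrays of the pair and 13.9 on Tg-Sirt1 2. Pdgfra went against this sum on Tg-Sirt1 2, where it was highest (9.97 against 9.31 to 9.82). All 3 neutrophil markers measured were highest on NTg 2, with a summed level of 9.20 against 7.89 to 8.18. S100a8 (7.55 against 5.64 to 6.10) and S100a9 (8.15 against 6.39 to 6.77) carried this, whereas Csf3r gave 6.85 against 6.65 to 6.80. NTg 2 was the highest array at 38.5% of all probe sets. The 5 smooth muscle and pericyte markers summed to 13.3 on NTg 2 and 13.7 on Tg-Sirt1 2, against 14.01 and 14.02 on the pair. NTg 2 was lowest for 2 of them, Acta2 (11.83 against 12.92 to 13.21) and Cspg4. The 6 endothelial markers summed to 11.9 on NTg 2 and on Tg-Sirt1 2 against 12.3, with NTg 2 lowest for 2 and highest for 1, Cdh5. The sums of 3 adipocyte markers were 7.89 on NTg 2 and 8.001 on Tg-Sirt1 2, against 8.36 and 8.38. Adipoq carried this (5.92 and 6.79 against 7.50 and 7.56), whereas Retn was highest on NTg 2 (7.23). The sums of 5 macrophage markers were 11.5 and 11.7 against 11.8, with NTg 2 lowest for 2. Tg-Sirt1 2, on which the low Bcl2 and Bcl2l1 probe sets lie, was the lowest array for 3 of 5 smooth muscle and pericyte markers. Of 6 endothelial markers it was lowest for 4 and highest for 1, Tek (10.09 against 9.34 to 9.82). Of 5 macrophage markers it was lowest for 2 and highest for 2, Csf1r and Adgre1. Among the low ones were Tagln (9.13 against 10.11 to 10.16), Kdr (10.36 against 10.68 to 11.18) and C1qa (8.18 against 8.88 to 9.30). Over all probe sets Tg-Sirt1 2 was lowest at 29.2% and highest at 30.1%. Lymphocytes depend on Bcl2, and red cell precursors on Bcl2l1 and Bnip3l. The summed level of 4 T cell markers was 8.73 on NTg 2 and 8.54 to 8.60 elsewhere, and that of 3 B cell markers was 7.24 to 7.32, with none of the 3 above 6.24 on any array. The 3 erythroid markers summed to 8.58 on NTg 2 and 8.85 to 8.99 elsewhere, through Alas2 (8.0 against 8.38 to 8.54), whereas Hba-a1 was highest on NTg 2 and Slc4a1 lowest on NTg 1. The part of other cell types in the results was not tested.

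RNA quality differed from the pair most on Tg-Sirt1 2 and also on NTg 2. The measure was the 3′ minus 5′ signal of a control, which is larger where less of the 5′ end was labelled. For Actb it was 1.92 on Tg-Sirt1 2 and 1.44 on NTg 2, against 1.22 and 1.25 on the pair. For Gapdh it was 1.34 on Tg-Sirt1 2 and 0.69 on NTg 2, against 0.18 and 0.19 on the pair. The part of this in the differences of family probe sets on Tg-Sirt1 2 and on NTg 2 was not tested.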

How the data were processed

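The deposited log2 values, 1 column per array, were used as the authors gave them. Per the submitters' processing notes they were made with RMA and Affymetrix Expression Console; neither a version nor a scan date is stated there. RMA equalizes arrays at the level of probes, so a change in total RNA is removed. The deposited values were still not on 1 common scale. Array medians were 6.23 (NTg 1), 6.30 (NTg 2), 6.24 (array labelled Tg-Sirt1 1) and 6.22 (Tg-Sirt1 2). A second quantile normalization moved bright probe sets on NTg 2, such as that of Bnip3 from 0.39 to 0.57 above the pair mean. Precision is limited by having 4 arrays.

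Of 45101 probe sets, 64 controls were left out. Names came from the platform annotation (34945 probe sets with 1 symbol, 932 with several, 9160 with none here). Entrez identifiers of 34741 matched RefSeq genes of GRCm38.p6, and 0 symbols changed. The brightest probe set stood for a gene in lists.

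Tg-Sirt1 was compared with NTg in limma 3.58.1 under R 4.3.3 (lmFit, eBayes), two-sided, adjusted by Benjamini-Hochberg over all probe sets at 0.05. The fit was tried on simulated data, where the checks it had to pass covered only arrays without a near-identical pair. Named were all members, Sirt1, up to 3 genes per list by smallest p, and the 5 nearest profiles, passing over clone names. Members and lists were chosen with earlier results of these data known. Alternatives covered the replicate block, each array left out, the pair counted once, scalings, an offset of 16, a filter at 6 and the variance prior.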

Additional observations from a re-analysis of the deposited data

How the results depend on the processing

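In limma, 0 probe sets of the array, of the family and of the 6 lists passed in every alternative run, also at an adjusted p of 0.1 for the array. Family probe sets with an unadjusted p under 0.05 numbered 3 when NTg 1 was left out, 2 when the array labelled Tg-Sirt1 1 was, and 2 and 3 with the pair counted once as NTg and as Tg-Sirt1, against 9.07%, 4.63%, 5.51% and 9.58% of all probe sets in these fits, with lowest adjusted p over the array of 0.515, 0.984, 0.288 and 0.508 in limma. The replicate block gave 0 as well and left every log2 fold change as it was. Same-numbered arrays deviated from their label means with r = 0.29 across probe sets. The near-identical arrays enter both deviations, which by itself pushes r upward, so this r cannot show pairing. The labels name no shared litter or day, so same-numbered arrays share only a number. All 24 family probe sets kept their direction under the block, the offset and the variance prior, as did the 16 that passed the filter on dim probe sets. After a second quantile normalization Mcl1 1416880_at was -0.0425, Mcl1 1456381_x_at -0.02875 and Bak1 1418991_at 0.0325, and the last was 0.025 after centring. With the pair counted once as NTg, Bak1 1425716_s_at was 0.065, Bid 1448560_at -0.0325, Bid 1447873_x_at 0.01 and Bbc3 0.0525. With the pair as Tg-Sirt1, Bak1 1418991_at was 0.135, Bad 1416583_at 0.1825 and Bid 1448560_at -0.0575. The cause was not tested. List medians with an array left out and the scalings of the probe sets standing apart were chosen after seeing the data.

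Leaving out 1 array in turn gave the following ranges of log2 fold change where the direction changed. For Bcl2 they were -0.075 to 1.575 (1457687_at), -0.32 to 0.99 (1437122_at), -0.54 to 0.02 (1422938_at) and -0.785 to 0.155 (1440770_at). For Bcl2l1 they were -0.445 to 0.035 (1420888_at) and -0.27 to 0.06 (1426191_a_at), and for Mcl1 -0.04 to 0.18 (1416880_at) and -0.065 to 0.275 (1416881_at). Bak1 spanned -0.14 to 0.12 and -0.215 to 0.115, Bad 1416583_at -0.265 to 0.165, Bid -0.095 to 0.005 (1447873_x_at) and -0.04 to 0.05 (1448560_at), Bbc3 -0.12 to 0.05 and Bnip3 -0.345 to 0.055. Others were Ctnnal1 (-0.08 to 1.60), Pdlim4 (-0.025 to 1.645), Tubb2a (-0.005 to 1.495), Bcl2l2 (-0.14 to 0.58), Bcl2l11 (-0.05 to 0.54), Car9 (-0.40 to 0.03) and Sirt1 (-0.075 to 0.695). The role medians spanned 0.035 to 0.41 (anti-apoptotic), -0.14 to 0.12 (Bak1) and -0.0575 to 0.0925 (BH3-only). Without 1 array, a label is left with 1 array, assumed to vary like the other label.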

Other observations

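A few related genes were singled out after their values were seen. Bcl2l2, the gene of the anti-apoptotic protein Bcl-w, gave 10.01 (NTg 1), 9.29 (NTg 2), 9.99 (array labelled Tg-Sirt1 1) and 9.75 (Tg-Sirt1 2). Like the brightest Bcl2 probe set it was lowest on NTg 2, 0.71 below the pair mean. Bcl2l11, the gene of the BH3-only protein Bim and a known FoxO target, gave 9.37, 9.39, 9.33 and 9.92 and was high on Tg-Sirt1 2 alone. It had a log2 fold change of 0.25 and a standard error of 0.22 (limma adjusted p = 0.996), and -0.05 without Tg-Sirt1 2.

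Among the 12 hypoxia-regulated genes, 2 were above the pair mean on NTg 2, as Bnip3 was. The carbonic anhydrase gene Car9 gave 6.16 on NTg 2 against 5.72 to 5.80 elsewhere. Pdk1, the kinase gene that restrains pyruvate dehydrogenase, gave 10.24 against 9.92 to 9.98.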
